A study of Mus musculus with 6 samples.

Results

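Pyroptosis is a lytic form of cell death in which a caspase or another protease cuts a gasdermin, and the freed amino-terminal part of the gasdermin opens pores in the plasma membrane. In the canonical branch, inflammasome sensors and the adaptor Pycard activate caspase-1, which cuts gasdermin D and matures the cytokines interleukin-1β and interleukin-18. In the noncanonical branch, caspase-4 (the mouse enzyme also called caspase-11) senses intracellular lipopolysaccharide and cuts gasdermin D itself. In the gut, interleukin-18 is known as a product of the epithelium, and interleukin-1β mainly as a product of myeloid cells. The genes described here were the 9 pyroptosis executioners outside the Gsdmc cluster: the gasdermins Gsdma, Gsdma3, Gsdmd and Gsdme, the caspases Casp1, Casp4 and Casp8, and the cytokines Il18 and Il1b. They were chosen by name, with earlier results of these data known. For each gene the probe set with the highest mean over the 6 arrays was used. Together the 9 genes had 10 probe sets among the 35556 on the array, since Gsdme alone had a second one. All 9 passed the filter on low signal (a mean log2 signal of at least 5.88, which 19506 named probe sets passed).

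The tumors came from mice aged 3 weeks that carried the CDX2P-G19Cre transgene, in which a fragment of the human CDX2 promoter drives Cre stochastically in the colon epithelium. Stromal and immune cells of the tumor tissue were thus not the target of the deletion. The paper names C57BL/6J for the Tgfbr2 flox/flox parent line and gives no strain for the crossed mice. Both groups were Apc flox/flox and thus lacked Apc in recombined cells. Mice of the double knockout (double KO) group, with 3 tumors, were also Tgfbr2 flox/flox. Mice of the Apc knockout (Apc KO) group, with 3 tumors, had no Tgfbr2 allele named in their genotype. RNA of laser-dissected tumor tissue was hybridized to 1 Affymetrix Mouse Gene 1.0 ST array per tumor. Whether each tumor came from a different mouse is not stated. The study compared both groups to find genes that differ with loss of the TGF-β receptor gene Tgfbr2 on an Apc-deficient background. Signals are log2 values after robust multi-array averaging (RMA), in which a difference of 1 is a doubling, and fold changes are double knockout minus Apc knockout. Levels of different probe sets are not comparable with each other.

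Tgfbr2 had log2 signals of 10.98, 10.35 and 10.47 in double KO tumors 1 to 3 and of 11.35, 11.37 and 11.09 in Apc KO tumors 1 to 3, without overlap, and Apc had a log2 fold change of −0.25. The probes of both sets were not placed relative to the floxed exons. Array medians lay between 7.68 and 7.80. Double KO tumor 2 was unlike the others, with a correlation across all probe sets of 0.956 to 0.968 with the other tumors, against 0.980 to 0.988 among the other 5. It had the highest signal of the 6 tumors in 28.5% of the tested probe sets and the lowest in 28.3%. Values without this tumor are given beside the results that it moves most. Epithelial marker genes, 12 in all, averaged between 12.12 and 12.27 in double KO tumors and between 11.79 and 12.18 in Apc KO tumors. Of these 12, 9 were highest and 2 lowest in double KO tumor 2. Among the 2 was Cdx2, named after its values were seen, at 8.24 there against 10.08 to 11.18 in the other tumors. In bulk tissue, fewer cells of a type and less RNA per cell cannot be told apart.

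No probe set of the array passed an adjusted p under 0.05 from limma in either direction (0% higher, 0% lower, of 19506), and the smallest adjusted p was 0.606. The background of weaker calls was 1.78% higher and 3.82% lower at an unadjusted limma p under 0.05 (5.60% in all). Groups did not overlap in 12.2% of the probe sets, 5.25% with every double KO tumor higher and 6.94% with every double KO tumor lower. Of the 9 pyroptosis genes, 1 (Gsdma, lower) had an unadjusted p under 0.05, and the same gene was the only 1 of the 9 without overlap. That unadjusted p rose above 0.05 in the methods' t-test (0.0550) and in limma without Apc KO tumor 2 (0.0509) or Apc KO tumor 3 (0.0537). It fell in limma without double KO tumor 2 (0.00524, adjusted p = 0.691) or double KO tumor 3 (0.00394, adjusted p = 0.523). In a list of 9, a count of 1 does not stand apart from these background shares. In double KO tumors 6 of the 9 had a higher mean and 3 a lower one (7 and 2 after median centring of the arrays). Over all tested probe sets 52.3% were higher. The median log2 fold change of the 9 was 0.04, against 0.01 over all tested probe sets. None of the 9 genes passed the adjusted threshold, so the differences below are described by their size, their interval and their values per tumor. The smallest two-sided p of an exact permutation test between such groups is 0.1.

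**Figure D1:**
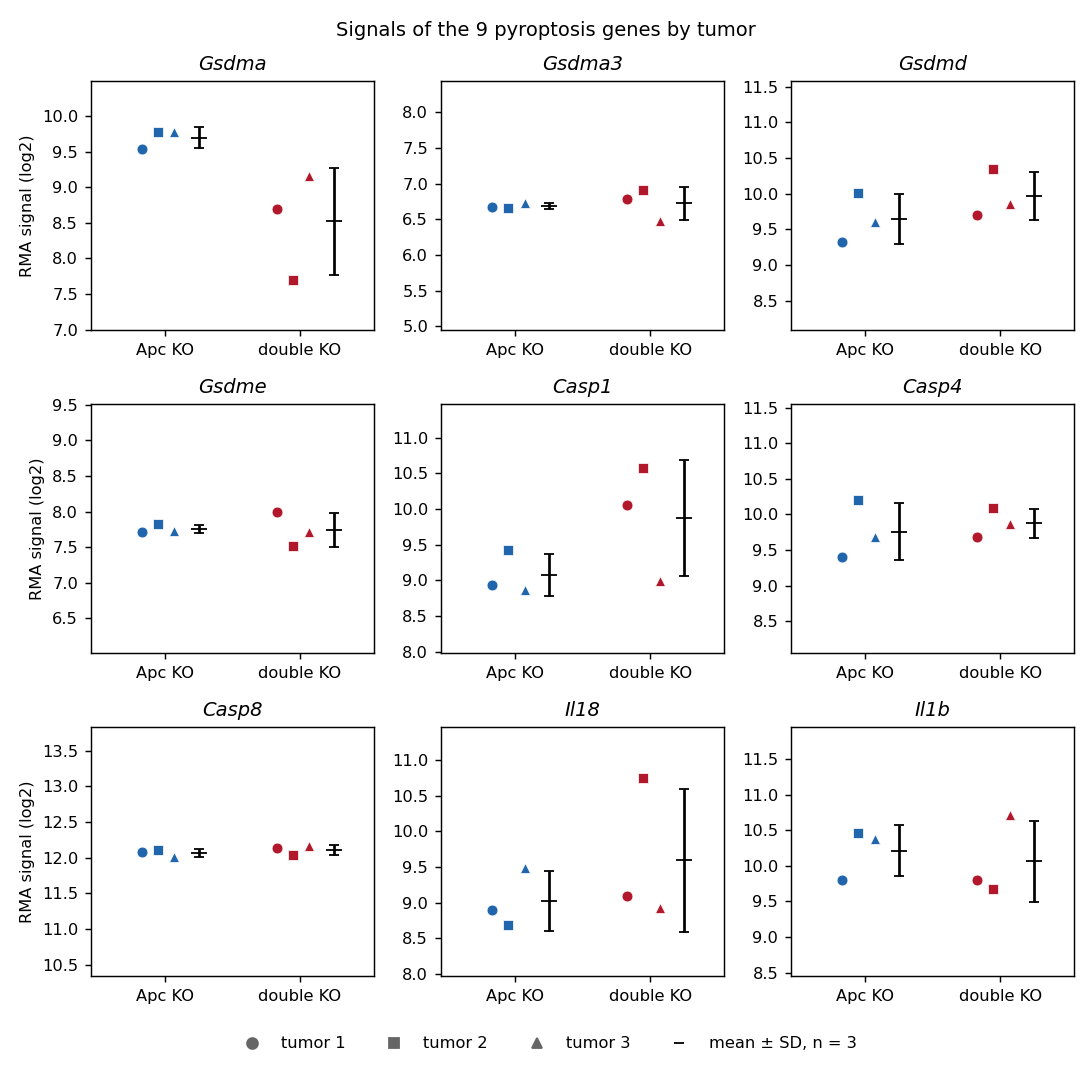
Log2 RMA signal (vertical axes, each spanning the same number of log2 units) of the 9 genes in the 3 Apc KO (blue) and 3 double KO (red) tumors, with 1 marker shape per replicate number and the mean ± SD beside each group in black. Gsdma was lower in every double KO tumor, Casp1 was above the Apc KO tumors in 2 of 3 double KO tumors, and Il18 stood high in double KO tumor 2 (10.75).

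Among the gasdermins, Gsdma had the largest difference of the 9 genes, with a lower signal in every double KO tumor. Gsdma is best known from skin and the upper digestive tract, and its protein is opened by a streptococcal protease. Its log2 signals were 8.70, 7.70 and 9.16 in double KO tumors 1 to 3 and 9.53, 9.78 and 9.78 in Apc KO tumors 1 to 3. The groups did not overlap, and the double KO tumors were spread over a wider range. The means were 8.52 ± 0.75 (SD, n = 3) and 9.70 ± 0.14 (SD, n = 3), a signal 2.26-fold lower in double KO tumors. The log2 fold change was −1.18 (standard error 0.36, 95% confidence interval −2.06 to −0.29, unadjusted p = 0.0170 and adjusted p = 0.821 from limma). The two-sided exact permutation p of Gsdma was 0.1. Without double KO tumor 2, the lowest of the 6, the log2 fold change was −0.77, and without double KO tumor 3 it was −1.50. Its adjusted p was between 0.523 and 0.945 over all alternatives.

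Gsdma lies in a run of 3 neighboring genes on chromosome 11, Gsdma3, Gsdma2 and Gsdma, close paralogs whose probes may share signal, so the split of the signal between them is uncertain. Gsdma2, which was below the filter on low signal, had log2 signals of 5.70, 5.05 and 5.89 in double KO tumors and 5.97, 6.07 and 6.13 in Apc KO tumors, again without overlap. Its log2 fold change was −0.51 (standard error 0.22) over all tumors and −0.26 without double KO tumor 2. Gsdma3, the paralog in which mutations cause hair loss in mice, had log2 signals of 6.79, 6.91 and 6.47 in double KO tumors and 6.67, 6.66 and 6.73 in Apc KO tumors. The groups of Gsdma3 overlapped, with a log2 fold change of 0.04 (95% confidence interval −0.29 to 0.37) and an exact permutation p of 0.9. Squamous epithelium expresses Gsdma genes, and 10 keratinocyte and squamous markers averaged 6.83 to 7.29 in double KO tumors and 6.93 to 7.10 in Apc KO tumors, with 7 of the 10 higher and 3 lower (6 and 4 after further quantile normalization). The lowest Gsdma signal and the lowest squamous marker average were both in double KO tumor 2, while the highest squamous average (7.29) was in double KO tumor 3, where Gsdma was at 9.16. Of the 10 markers, 2 were lowest and 3 highest in double KO tumor 2. Krt14, named after its values were seen, had the widest range, from 7.73 in double KO tumor 2 to 10.82 in double KO tumor 3. The part of squamous cells in the Gsdma difference was not tested.

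Gsdmd, the common substrate of the inflammatory caspases and the gasdermin through which mature interleukin-1β leaves living cells, had overlapping groups. Its log2 signals were 9.70, 10.34 and 9.85 in double KO tumors and 9.32, 10.01 and 9.60 in Apc KO tumors, with tumor 2 of either group at the top. The means were 9.96 ± 0.33 and 9.64 ± 0.35 (SD, n = 3 each), with a log2 fold change of 0.32 (95% confidence interval −0.26 to 0.90) and an exact permutation p of 0.4. The upper end of the interval is 1.87-fold. Leaving out 1 tumor at a time moved the log2 fold change between 0.13 and 0.50, the lowest value being the one without double KO tumor 2.

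Gsdme, whose protein is cut by caspase-3 and granzyme B and turns apoptosis into lysis, had nearly equal means. In the probe set with the higher mean the log2 signals were 8.0, 7.52 and 7.71 in double KO tumors and 7.72, 7.82 and 7.73 in Apc KO tumors. The 3 Apc KO tumors lay within the range of the double KO tumors. The log2 fold change was −0.02 (95% confidence interval −0.37 to 0.33), and its sign turned with median centring (0.02) and further quantile normalization (0.01). The second Gsdme probe set gave −0.24 (95% confidence interval −0.74 to 0.27), with log2 signals of 5.72 to 6.28 in double KO tumors and 6.11 to 6.59 in Apc KO tumors. The second set too gave overlapping groups. Pjvk, the distant gasdermin relative needed for hearing, was below the filter on low signal and had a log2 fold change of −0.17 (exact permutation p = 0.2).

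Of the caspases, Casp1, the protease of the canonical inflammasome, had the largest difference. Its log2 signals were 10.06, 10.58 and 8.99 in double KO tumors 1 to 3 and 8.94, 9.42 and 8.87 in Apc KO tumors 1 to 3. Double KO tumors 1 and 2 were above all Apc KO tumors, and double KO tumor 3 lay among them. The means were 9.88 ± 0.81 and 9.08 ± 0.30 (SD, n = 3 each), a signal 1.74-fold higher in double KO tumors. The log2 fold change was 0.80 (standard error 0.41, 95% confidence interval −0.20 to 1.80, adjusted p = 0.821 from limma), and the exact permutation p was 0.2. The interval thus holds both no difference and a signal up to 3.47-fold higher. Leaving out double KO tumor 2 gave 0.45 (adjusted p = 0.981 from limma) and leaving out double KO tumor 3 gave 1.24 (adjusted p = 0.507 from limma), so the size of the Casp1 difference rests on which double KO tumors are counted.

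Casp4 follows Casp1 directly on chromosome 9, and its groups overlapped. Its log2 signals were 9.68, 10.09 and 9.86 in double KO tumors and 9.40, 10.20 and 9.68 in Apc KO tumors, with the highest and the lowest tumor both in the Apc KO group. Casp4 had a log2 fold change of 0.12 (95% confidence interval −0.44 to 0.67, exact permutation p = 0.8), and −0.06 without Apc KO tumor 1. Whether the differences of Casp1 and Casp4 are themselves different was not tested. The stretches before the starts of these neighbors are shown because the genes lie side by side in the same orientation and carry different letters there. They are from RefSeq on build GRCm38.p6, at chr9:5298267-5298516 for Casp1 and chr9:5308599-5308848 for Casp4 (the first of 2 Casp4 entries), both on the plus strand and ending at the base before the gene start. Capitals mark matches to 4 motifs searched on both strands: GGG, any 2 bases, TT, any base and CC for NF-kB, GAAA, any 2 bases and GAAA for interferon regulatory factors, TGANTCA for AP-1 and CAGAC for SMAD proteins, the transcription factors downstream of the TGF-β receptor.
Casp1: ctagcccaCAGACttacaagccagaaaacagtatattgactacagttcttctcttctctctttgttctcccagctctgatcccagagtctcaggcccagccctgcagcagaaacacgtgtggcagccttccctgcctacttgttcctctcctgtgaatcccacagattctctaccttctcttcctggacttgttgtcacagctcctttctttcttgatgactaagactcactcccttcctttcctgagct
Casp4: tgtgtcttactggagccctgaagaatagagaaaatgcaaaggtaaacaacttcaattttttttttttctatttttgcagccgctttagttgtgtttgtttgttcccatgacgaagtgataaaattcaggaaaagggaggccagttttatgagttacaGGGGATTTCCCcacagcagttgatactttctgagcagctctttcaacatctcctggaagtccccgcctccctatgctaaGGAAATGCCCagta

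In these stretches the Casp4 sequence had 3 NF-kB matches, 2 of them overlapping in the first block of capitals and 1 on the minus strand in the second block, and the Casp1 sequence had 1 CAGAC match. Over windows of 300 bases around the gene start, 4.79% of 32851 promoters held the NF-kB letters, 3.44% the interferon regulatory factor letters, 7.81% the AP-1 letters and 49.6% the CAGAC letters. The whole Casp1 window had 2 CAGAC matches. Such windows were found for 7 of the 9 genes, with none for Gsdma and Gsdmd. Beside Casp4, only the Gsdma3 window held NF-kB letters (1 match), and it also held 1 interferon regulatory factor match and 2 CAGAC matches. The Gsdme window had 1 CAGAC match, and the windows of Casp8, Il18 and Il1b held none of the 4 motifs. A match gives letters and no binding.

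Casp8, the initiator caspase of the death receptors, which can also cut gasdermins, was the steadiest of the 9 genes. Its log2 signals were 12.13, 12.03 and 12.16 in double KO tumors and 12.08, 12.11 and 12.01 in Apc KO tumors. All 6 values lay within a narrow range and the groups overlapped. Its log2 fold change of 0.04 had the narrowest interval of the 9 genes (95% confidence interval −0.19 to 0.27), which spans 0.876-fold to 1.20-fold.

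Of the cytokines, Il18 was high in 1 tumor. It had log2 signals of 9.09, 10.75 and 8.93 in double KO tumors 1 to 3 and 8.89, 8.68 and 9.49 in Apc KO tumors 1 to 3. Double KO tumor 2 was the highest by more than 1 log2 unit, and the other 2 double KO tumors lay within the Apc KO range. The means were 9.59 ± 1.01 and 9.02 ± 0.42 (SD, n = 3 each), with a log2 fold change of 0.57 (95% confidence interval −0.68 to 1.83, exact permutation p = 0.5). Without double KO tumor 2 the Il18 log2 fold change was −0.01. Markers of differentiated colonocytes moved with this tumor: 12 of them averaged 10.10, 11.57 and 9.11 in double KO tumors 1 to 3 and 9.58 to 10.19 in Apc KO tumors, and 7 of the 12 were highest in double KO tumor 2. Smooth muscle markers, 10 in all, averaged 8.72, 10.36 and 8.17 in double KO tumors and 8.25 to 8.78 in Apc KO tumors, and 9 of the 10 were highest in double KO tumor 2. The part of either cell type in the Il18 signal was not tested.

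Il1b had log2 signals of 9.80, 9.68 and 10.72 in double KO tumors 1 to 3 and 9.80, 10.46 and 10.38 in Apc KO tumors 1 to 3. The highest and the lowest value were both in the double KO group. The log2 fold change was −0.15 (95% confidence interval −0.94 to 0.64, exact permutation p = 0.8), 0.05 without double KO tumor 2 and −0.48 without double KO tumor 3. Neutrophils are a known source of Il1b, and neutrophil markers had lower signals in double KO tumors for 10 of 10 genes (8 of 10 after median centring, 9 of 10 after further quantile normalization, median log2 fold change −0.84, with 3 of 10 lower at an unadjusted limma p under 0.05, beside a background share of 3.82%). Their averages were 7.24, 8.64 and 7.75 in double KO tumors and 9.23, 9.19 and 8.33 in Apc KO tumors. The list ranged from −2.64 for the granule gene Ngp to −0.00 for Mpo, with Csf3r (−0.02) and Camp (−0.05) also near 0. Retnlg (−1.72) was the 1 marker without overlap, beside a background share of 6.94% lower. Over all tested probe sets, 52.3% had a higher signal in double KO tumors. These markers were named after their values were seen. Macrophage and monocyte markers, 12 in all, averaged 9.10 to 9.72 in double KO tumors and 9.34 to 9.74 in Apc KO tumors. The part of these cells in the Il1b signal was not tested.

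**Figure D2:**
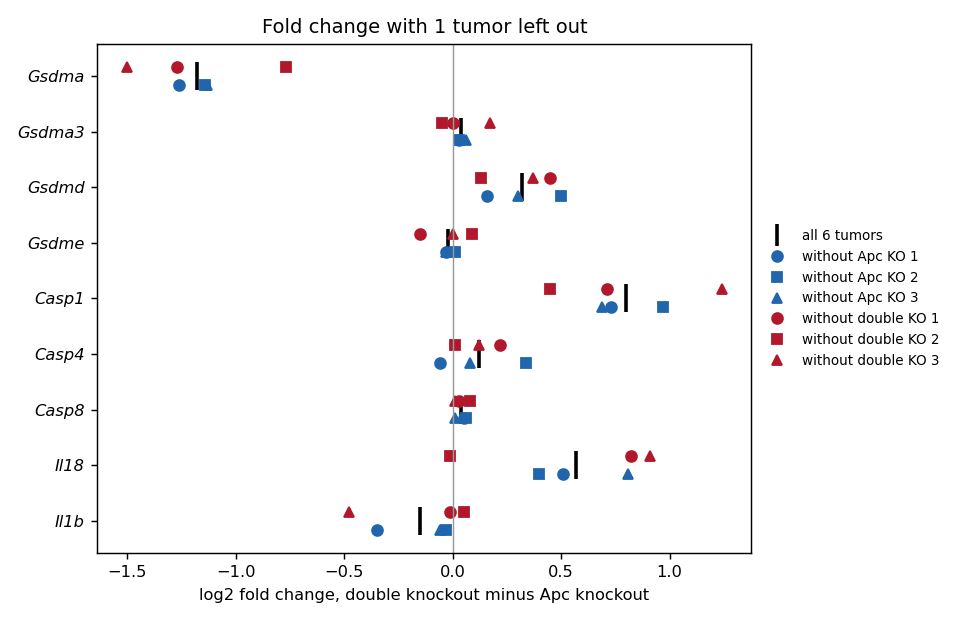
Log2 fold change (horizontal axis, double KO minus Apc KO) of each of the 9 genes with all 6 tumors (black bar) and with 1 tumor left out (markers, colored by the group of the tumor that was left out). Gsdma stayed below 0 (−1.50 to −0.77) and Casp1 above 0 (0.45 to 1.24), while Il18 went from 0.57 to −0.01 without double KO tumor 2.

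The study chose the Gsdmc genes on these same tumors, and they give the scale against which the other pyroptosis genes can be read. Gsdmc4 had log2 signals of 11.63, 12.36 and 9.43 in double KO tumors and 9.20, 6.71 and 7.67 in Apc KO tumors, which is 9.69-fold higher (95% confidence interval 2.05-fold to 45.9-fold). The genes of the Gsdmc cluster are close paralogs whose probes cross-react, so these array signals cannot be assigned to 1 gene of the cluster. With specific primers, the paper reports higher Gsdmc2 and Gsdmc4 RNA in double KO tumors by qRT-PCR. On the arrays the Gsdmc4 log2 fold change of 3.28 was the largest of all tested probe sets, and Gsdmc2 gave 2.55. To compare Gsdmc4 with the 9 genes, the difference between the Gsdmc4 signal and the signal of each gene was taken within each tumor. These differences were higher in double KO tumors by 2.48 (Casp1) to 4.45 (Gsdma) on the log2 scale. The groups did not overlap for 6 of the 9 genes (Gsdma, Gsdma3, Gsdme, Casp1, Casp8 and Il18, two-sided exact permutation p = 0.1 each and 0.15 after adjustment over the 9 genes). For Gsdmd (2.96), Casp4 (3.16) and Il1b (3.42) the exact permutation p was 0.2, also after adjustment. Leaving out 1 tumor at a time, the smallest of these differences was 1.73 (Casp1, without Apc KO tumor 2). Since Gsdmc4 was picked for its difference in these tumors, the comparison is a description of how far the 9 genes lay from it. Gsdmc4 by itself did not overlap between the groups, so subtracting a gene with little change returns much the same result. The 9 p-values are therefore not separate results, and the share without overlap over all tested probe sets is not given here.

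**Figure D3:**
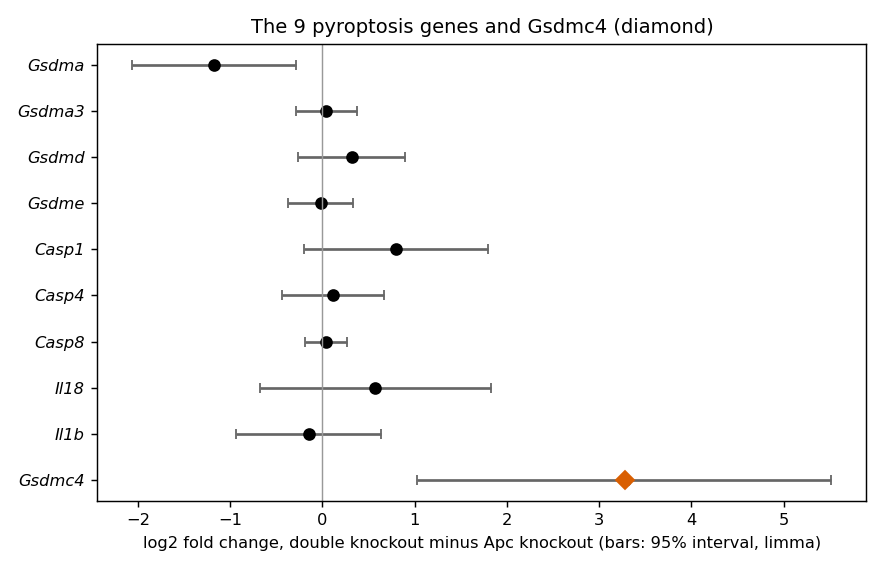
Log2 fold change (horizontal axis, double KO minus Apc KO, n = 3 each) of the 9 genes (circles) and Gsdmc4 (diamond), with 95% confidence intervals from limma. Only the intervals of Gsdma (−2.06 to −0.29) and Gsdmc4 leave out 0, and the interval of Casp1 reaches from −0.20 to 1.80.

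Upstream of Casp1 and Casp4, 22 of 25 listed inflammasome sensors and adaptors were measured and 21 passed the filter on low signal. Of these 21, 13 were higher and 8 lower in double KO tumors (14 and 7 after further quantile normalization), and their median log2 fold change was 0.42 (0.01 over all tested probe sets). None of the 21 had an unadjusted limma p under 0.05 and none was without overlap. The median ranged from 0.02 (without Apc KO tumor 1) to 0.40 with 1 tumor left out, and it was 0.17 without double KO tumor 2. With all tumors it was the value of 1 gene, Gbp3 (standard error 0.76), and the next gene below was Nek7 at 0.05. The size of the median thus rests on the full set of tumors and on the order of few genes. Pycard, the adaptor that joins sensors to caspase-1, had log2 signals of 9.85, 11.39 and 8.97 in double KO tumors and 9.19, 8.85 and 8.64 in Apc KO tumors. As with Casp1, double KO tumors 1 and 2 were above all Apc KO tumors, and tumor 3 was within their range. The log2 fold change of Pycard was 1.18 (standard error 0.59, 95% confidence interval −0.25 to 2.62), and 0.52 without double KO tumor 2.

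Nlrp6, a sensor known from the intestinal epithelium, had log2 signals of 10.37, 10.65 and 8.65 in double KO tumors and 9.22, 9.39 and 8.64 in Apc KO tumors (log2 fold change 0.80, 95% confidence interval −0.52 to 2.12, and 0.42 without double KO tumor 2). Double KO tumors 1 and 2 were again at the top, and double KO tumor 3 was level with the lowest Apc KO tumor. Naip2, Naip5 and Naip6, which recognize bacterial flagellin or secretion system proteins, had log2 fold changes of 0.64, 0.60 and 0.67 with all tumors. All 3 were highest in double KO tumor 2 and gave 0.21, 0.22 and 0.17 without it. The Naip genes are close paralogs, so their signals may be shared and do not count as separate measurements. Their partner Nlrc4 gave 0.02, and 0.23 without that tumor. Nlrp1b gave 0.72 and Nlrp9b, a sensor of viral RNA in the gut epithelium, 1.10, against 0.33 and 0.39 without double KO tumor 2. Nlrp3, the sensor best known from myeloid cells, had a log2 fold change of −0.38 (exact permutation p = 0.2), with its lowest value in double KO tumor 2, and −0.18 without that tumor. The DNA sensor Aim2 gave −0.11 with it and −0.30 without it. The guanylate-binding proteins Gbp3, Gbp5 and Gbp7, interferon-induced helpers of the Casp4 branch, had log2 fold changes of 0.42, 0.59 and 0.55, and were high in double KO tumors 1 and 3 and low in double KO tumor 2 and Apc KO tumor 1. Without double KO tumor 2 they gave 1.20, 1.39 and 1.12 (adjusted p = 0.872, 0.912 and 0.748 from limma). Genes of this list named beyond Pycard, Nlrp1b, Nlrp3 and Nlrp9b were chosen after their values were seen.

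**Figure D4:**
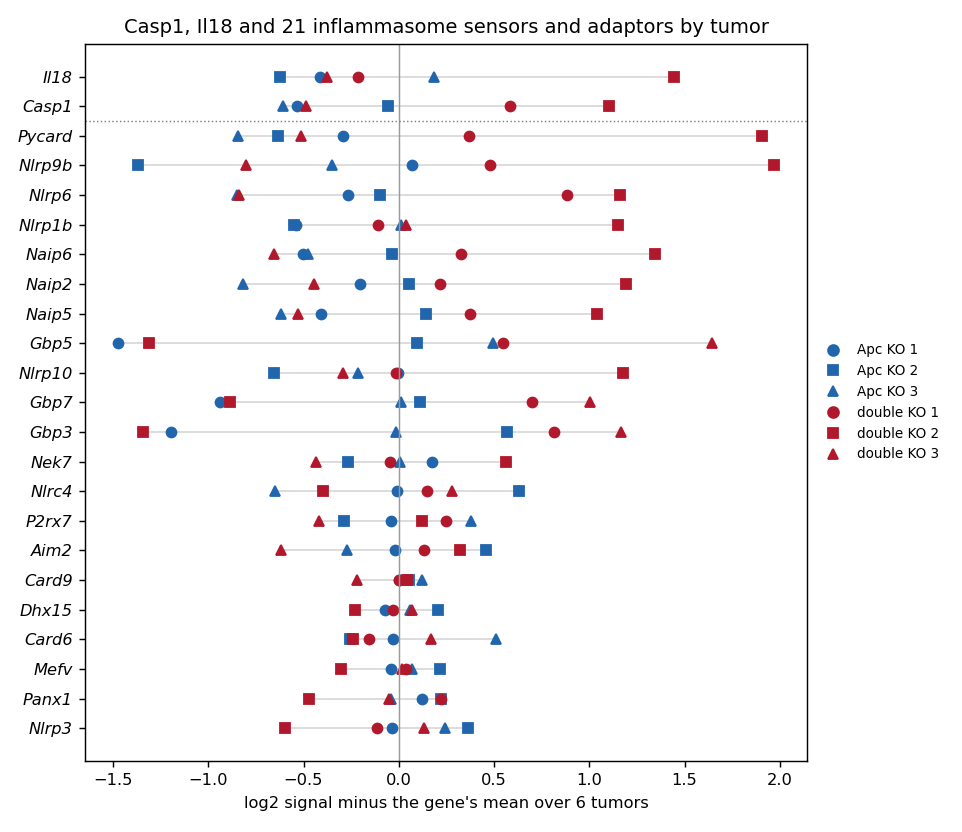
Log2 signal minus the mean of the gene over the 6 tumors (horizontal axis) for Casp1, Il18 and the 21 inflammasome sensors and adaptors that passed the filter on low signal, ordered by fold change, with Apc KO tumors in blue, double KO tumors in red and 1 marker shape per replicate number. Double KO tumor 2 is the highest tumor for Casp1, Il18, Pycard, Nlrp6 and Naip2, and double KO tumor 3 lies near the Apc KO tumors for these genes.

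Around Casp8, 19 of 20 listed genes of death receptor signaling and necroptosis were measured, 10 higher and 9 lower in double KO tumors (13 and 6 after median centring, 11 and 8 after further quantile normalization), with a median of 0.01. The death ligand Tnfsf10 (TRAIL) was the only 1 of the 19 with an unadjusted limma p under 0.05, beside background shares of 1.78% higher and 5.60% in all. Its log2 signals were 9.90, 8.62 and 10.56 in double KO tumors and 7.83, 9.07 and 8.03 in Apc KO tumors. Double KO tumors 1 and 3 were above all Apc KO tumors, and double KO tumor 2 was below Apc KO tumor 2. The Tnfsf10 log2 fold change was 1.38 (standard error 0.56, unadjusted p = 0.0470 and adjusted p = 0.821 from limma), and 1.92 without double KO tumor 2. Mlkl, the pore-forming protein of necroptosis, gave 0.47, the Casp8 adaptor Fadd 0.22 and the ubiquitin ligase Birc2 −0.29 (−0.14 without double KO tumor 2), and the groups of each overlapped.

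Among the other caspases, 5 of 7 listed genes were measured, 2 higher and 3 lower (3 and 2 after either further scaling), with a median of −0.00. Casp6, an executioner caspase, was lower in every double KO tumor, with log2 signals of 10.52, 10.01 and 10.50 against 10.89, 10.70 and 10.52 in Apc KO tumors. The margin was small, and the log2 fold change was −0.36 (95% confidence interval −0.80 to 0.08), and −0.20 without double KO tumor 2. Casp14, the caspase of cornifying epithelium, had a log2 signal of 10.66 in double KO tumor 2 and of 5.40 to 5.90 in the other 5 tumors. Its log2 fold change was 1.69 with that tumor and 0.03 without it. Casp14 passed the filter on low signal (5.88) only through that tumor, with a mean of 5.64 in Apc KO tumors. Its place among the 2 higher genes thus rests on that tumor. Casp12, next to Casp4 on chromosome 9, gave −0.15 and Casp2 gave 0.02, and without double KO tumor 2 Casp12 turned to 0.26 and Casp2 gave 0.17.

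Of the granule proteases that cut gasdermins, all 4 were measured and 3 passed the filter. Granzyme A (Gzma), which cuts gasdermin B in humans, had a log2 fold change of −0.13, and granzyme B (Gzmb), which cuts gasdermin E, of 0.28. Without double KO tumor 2 Gzma turned to 0.29 and Gzmb gave 0.84 (adjusted p = 0.872 from limma). The neutrophil proteases Elane and Ctsg gave 0.04 and 0.19. Granzyme signals differed among the double KO tumors, with Gzmb at 9.32, 7.09 and 8.25 in tumors 1 to 3, against 7.65 to 8.31 in Apc KO tumors. T and NK cell markers, 8 in all, averaged 6.54 to 6.96 in double KO tumors and 6.25 to 6.66 in Apc KO tumors, and Gzmb and these markers were both highest in double KO tumor 1. Their part in the granzyme signals was not tested.

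The 15 genes of membrane rupture and repair, which act once a gasdermin pore has formed, had log2 fold changes from −0.15 to 0.34, with 11 higher, 4 lower and a median of 0.10. In all, 11 of the 15 were highest in double KO tumor 2, and the median was −0.05 without it. Ninj1, whose protein ruptures the plasma membrane at the end of pyroptosis, had a log2 fold change of −0.09 (95% confidence interval −0.35 to 0.16) and was named after its values were seen. The subunits of the membrane-sealing ESCRT-III complex gave 0.34 for Chmp6 and −0.15 for Chmp4b, and their partners 0.24 for Vps4a and −0.13 for Tsg101 (−0.06 without double KO tumor 2). Chmp6 and Vps4a were highest in double KO tumor 2 and gave 0.10 and −0.00 without it.

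Downstream of Il1b and Il18, 15 of 22 listed ligands, receptors, antagonists and adaptors of the interleukin-1 family were measured and 14 passed the filter. In double KO tumors 5 were higher and 9 lower, with a median of −0.23 that stayed between −0.28 and −0.14 with 1 tumor left out. Of these 14, 2 were lower at an unadjusted limma p under 0.05, and the same 2 were without overlap, beside background shares of 3.82% and 6.94%. Irak3, an inhibitory kinase of the pathway, had log2 signals of 9.19, 8.54 and 8.81 in double KO tumors and 9.38, 9.94 and 9.34 in Apc KO tumors. Irak3 thus differed by −0.71 on the log2 scale (standard error 0.24, unadjusted p = 0.0233 and adjusted p = 0.821 from limma), and by −0.55 without double KO tumor 2. Il1r2, the decoy receptor that binds interleukin-1 without signaling, had log2 signals of 8.03, 8.21 and 7.78 against 9.08, 9.76 and 8.31. Its log2 fold change was −1.04 (standard error 0.36, unadjusted p = 0.0267 and adjusted p = 0.821 from limma), and −1.15 without double KO tumor 2.

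Both Irak3 and Il1r2 are expressed by neutrophils and other myeloid cells. The average of the 10 neutrophil markers was lower by 1.04 in double KO tumors, with overlap (8.33 in Apc KO tumor 3 was below 8.64 in double KO tumor 2). The average of the 12 macrophage and monocyte markers differed by −0.08, also with overlap, with 5 higher and 7 lower. The part of such cells in both differences was not tested. Myd88, the adaptor shared by receptors of this family, gave 0.40, and the signaling kinase Irak2 gave −0.27. Il33, an alarmin of barrier and stromal cells, had the lowest log2 fold change of the list (−1.14, 95% confidence interval −3.23 to 0.95), with log2 signals from 7.24 to 9.49 in double KO tumors and from 8.02 to 10.93 in Apc KO tumors. Il18bp, the secreted antagonist of interleukin-18, gave 0.10, and Il1rn, the receptor antagonist, 0.30. Without double KO tumor 2 these 3 gave −0.62 for Il33, 0.29 for Il18bp and 0.09 for Il1rn. Il33, Il18bp and Il1rn were named after their values were seen.

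**Figure D5:**
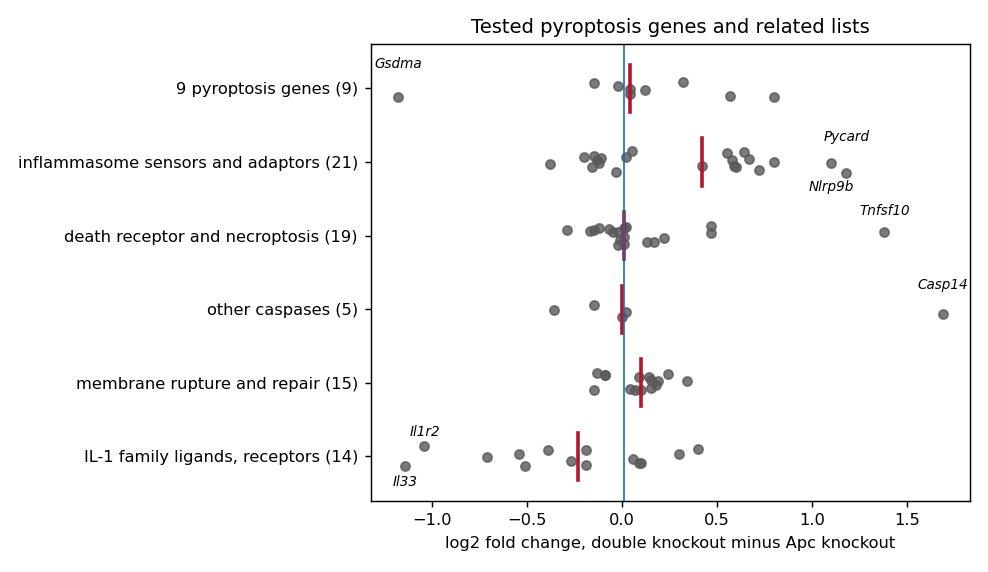
Log2 fold change (horizontal axis, double KO minus Apc KO) of the 9 genes and of the tested genes of 5 related lists, with 1 point per gene, the list median in red, the median of all tested probe sets (0.01) as a blue line, and genes at or beyond 1 in either direction named. The medians lie at 0.42 for the inflammasome sensors and adaptors and −0.23 for the interleukin-1 family, and the other 4 lie between −0.00 and 0.10.

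The order of the 6 tumors varied from gene to gene. Among their 36 pairs, Pearson's r was highest for Gsdmd and Casp4 (0.91) and lowest for Gsdma and Casp1 (−0.88), as a description over 6 points that share the 2 groups and double KO tumor 2. Casp1 and Il18 had an r of 0.68, and Il18 and Il1b of −0.50. Over 18350 probe sets with 1 symbol, the genes most like each of them over the 6 tumors had r between 0.975 and 0.999, as the best of many sets over few points will have. For Il18 they were Cryzl1 (0.998) and Aqp8 (0.997), the latter a water channel of surface colonocytes that is itself among the 12 colonocyte markers. Both stayed at or above 0.974 without double KO tumor 2. The remaining tumors were part of those on which the sets were picked, so that value is no separate check. The sets most like Gsdma were Iqcb1 (0.999) and Snord104 (0.998). For Casp1 they were Rock1 (0.993) and Abcb1a (0.992), and for Il1b they were Apobr (0.999) and Alpk3 (0.990). Gsdmd was nearest to Krtcap3 and Ap5s1 (0.980 each), Gsdme to Pnma1 and Csf2rb2, Gsdma3 to Filip1 and Trpt1, Casp4 to Enoph1 and Zc3h8, and Casp8 to Cse1l and Cenpf.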

How the data were processed

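Samples were grouped by the labels, and replicates are tumors with 1 array each, treated as independent. The deposited values are log2 signals that the authors made with RMA (background correction, quantile normalization, summary of probes) in GeneSpring GX. The sources used here name no RMA version or annotation build. Of 35556 probe sets, 21789 have 1 gene symbol in the platform annotation. Named sets with a mean of at least 5.88 (the 20th percentile over the table) were tested with limma 3.58.1 in R 4.3.3 (lmFit, eBayes, no covariates, Benjamini-Hochberg over 19506 sets), in place of the methods' 20% cut-off, whose measure is not stated. The fit was tested on simulated data. Single genes also had two-sided exact permutation tests. The 9 genes and all lists were chosen with earlier results of these data known. Named genes were the 9, Gsdmc4, Gsdmc2, Tgfbr2 and Apc, the 4 of each list with the smallest unadjusted p (all of shorter lists), and the 2 sets most like each of the 9, beside genes marked in the text as named after their values were seen. Alternatives were the methods' t-test, 3 other filters, median centring, a further quantile normalization, trend and robust eBayes, the replicate block, the mean of all sets of a gene and each tumor left out. The number of arrays limits the precision.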

Additional observations from a re-analysis of the deposited data

How the results depend on the processing

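No alternative moved any of the 9 genes across the adjusted threshold. Of the alternative values for the 9 genes, 111 kept their direction and 9 turned it: Gsdme with median centring (0.02), with further quantile normalization (0.01) and without tumor 2 of the double KO (0.09) or Apc KO (0.01) group, Casp8 with quantile normalization (−0.00), Gsdma3 (−0.05), Il18 (−0.01) and Il1b (0.05) without double KO tumor 2, and Casp4 without Apc KO tumor 1 (−0.06). Gsdma and Casp1 kept their direction in all 13 alternatives each.

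With 1 tumor left out the log2 fold changes ranged from −1.50 to −0.77 for Gsdma, −0.05 to 0.17 for Gsdma3, 0.13 to 0.50 for Gsdmd, −0.15 to 0.09 for Gsdme, 0.45 to 1.24 for Casp1, −0.06 to 0.34 for Casp4, 0.01 to 0.08 for Casp8, −0.01 to 0.91 for Il18 and −0.48 to 0.05 for Il1b. Over the same fits 238 to 710 probe sets were higher and 439 to 1006 lower at an unadjusted p under 0.05 (347 and 745 with all tumors), and the count of higher sets was 710 without double KO tumor 3, that of lower sets 439 without Apc KO tumor 1 and 481 without Apc KO tumor 3. The median of the inflammasome list ranged from 0.02 to 0.40. It was 0.12 without double KO tumor 1, 0.17 without either of the other double KO tumors and 0.02 without Apc KO tumor 1. With all tumors the median of 0.42 lay at Gbp3, and the next gene below was Nek7 at 0.05, so a change of order moves it.

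When the filter on level was replaced by a coefficient of variation under 20% within each group, 107 of 15417 probe sets passed the adjusted threshold and 698 were higher at an unadjusted p under 0.05. This filter removes sets that vary within a group, and of the 9 genes it kept Gsdma3, Gsdme and Casp8, none of which passed. The methods' t-test called 0 sets after adjustment and 409 higher and 589 lower before it. Gsdma3 was not among the sets of the 40th percentile filter. The replicate numbers did not pair the tumors: deviations of same-numbered tumors correlated at −0.20, −0.06 and 0.09, and same-numbered tumors correlated best with each other for 1 number of 3. With the replicate number as a block, 0 sets passed the adjusted threshold, and 421 were higher and 929 lower at an unadjusted p under 0.05. Gsdma, Casp1 and Gsdmd then had unadjusted limma p-values of 0.0191, 0.0299 and 0.0489. The 54 differences from Gsdmc4 with 1 tumor left out kept their direction. With 3 tumors a group, an interval that includes 0 does not exclude any of the differences within it.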
